A study of Mus musculus with 9 samples.

Results

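Genes of DNA replication and cell division were followed in RNA sequencing of colon macrophages from mice of 3 genotypes. The set holds 46 listed proliferation genes, all of which were in the table of 42454 genes. A gene was kept where its normalized count, the reads of a library divided by that library's size factor, was at least 10 in at least 3 of the 9 libraries. All 46 passed, as did 14404 genes of the whole table. By role, 18 members act in DNA replication and 28 in mitosis.

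The cells were sorted as Ly6C low and MHC class II positive from the lamina propria, the connective tissue under the epithelium of the gut, of mice aged 6 weeks. WT, p47phox-/- and gp91phox-/- mice gave 3 libraries each. p47phox (gene Ncf1) and gp91phox (gene Cybb) are subunits of the phagocyte NADPH oxidase, which makes superoxide, and the series title names reactive oxygen species and the development of intestinal macrophages. The labels give no strain, sex or number of animals behind a library.

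A dividing cell first loads the Mcm helicase onto replication origins and, once E2F factors have been released from the RB family, makes the clamp, nucleotides and polymerases that copy DNA. It then builds up cyclin A, cyclin B and Cdk1 with the kinases, kinetochore proteins and motors that part the chromosomes. Most macrophages of the adult colon are replaced from blood monocytes, and dividing cells are usually a small part of them. In sorted cells measured in bulk, more dividing cells and more of a transcript in each dividing cell cannot be told apart.

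The mitotic genes are textbook targets of the DREAM and MuvB complexes, which bind the CHR element (TTTGAA) and act with NF-Y at CCAAT boxes, and the replication genes of E2F factors. RefSeq promoters (GRCm38.p6) were matched by symbol for 37 of the 46 members, and the 250 bases before the first listed start were searched on both strands for CHR, for CCAAT and for an E2F motif written as TTTGGCGC or TTTCCCGC. A CHR match lay before 9 of 22 mitosis members (40.9%) and 1 of 15 replication members (6.67%), against 16.3% of all 27025 promoters. CCAAT was present before 81.1% of the members and 34.5% of all promoters. The E2F letters were found before 3 members, Mcm5, Mcm6 and Mcm7, which is 8.11% of the members against 1.35% of all promoters. In the 37 windows, 1 match overlapped another. The stretches before Mki67 (chr7:135716380-135716629, minus strand), Top2a (chr11:99024190-99024439, minus strand), Mcm6 (chr1:128359706-128359955, minus strand) and Rad51b (chr12:79297032-79297281, plus strand) are given 5′ to 3′ on the strand of the gene, with matches to any of the motifs in capitals. These windows are not typical of their groups: Mki67 and Top2a are among the 4 members with 2 CHR matches, Mcm6 is the only member with 2 E2F matches, and Rad51b is the member that differed from WT in both knockouts.
Mki67: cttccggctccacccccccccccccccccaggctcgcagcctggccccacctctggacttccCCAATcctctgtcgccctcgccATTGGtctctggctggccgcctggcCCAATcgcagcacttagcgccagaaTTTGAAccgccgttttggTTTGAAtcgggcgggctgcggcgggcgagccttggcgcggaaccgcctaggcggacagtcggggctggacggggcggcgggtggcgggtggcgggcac
Top2a: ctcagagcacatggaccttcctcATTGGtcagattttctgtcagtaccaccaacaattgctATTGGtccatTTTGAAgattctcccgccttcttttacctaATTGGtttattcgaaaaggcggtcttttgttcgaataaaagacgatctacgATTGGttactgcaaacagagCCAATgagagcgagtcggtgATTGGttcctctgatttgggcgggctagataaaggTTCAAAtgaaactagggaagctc
Mcm6: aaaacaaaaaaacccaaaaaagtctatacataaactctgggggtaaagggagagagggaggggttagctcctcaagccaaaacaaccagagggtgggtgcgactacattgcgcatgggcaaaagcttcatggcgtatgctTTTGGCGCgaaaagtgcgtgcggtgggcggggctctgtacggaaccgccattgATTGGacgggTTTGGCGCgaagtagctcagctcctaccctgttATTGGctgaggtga
Rad51b: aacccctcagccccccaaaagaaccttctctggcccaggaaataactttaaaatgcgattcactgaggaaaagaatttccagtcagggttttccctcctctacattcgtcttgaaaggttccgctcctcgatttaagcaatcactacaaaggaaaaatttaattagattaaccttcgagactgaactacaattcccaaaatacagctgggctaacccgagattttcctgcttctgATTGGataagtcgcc
Mki67 and Top2a each held 2 CHR matches beside several CCAAT matches, and Mcm6 held 2 E2F matches. Rad51b held a single CCAAT match and neither other motif, so that its window had less of these letters than the other shown promoters. A match is a run of letters and was not tested for binding.

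The libraries held 31141107 to 52797368 reads on genes. Ncf1 stood at 2718 to 3733 normalized counts in p47phox-/- libraries, below its 8989.8 to 10815 in WT and 12136 to 13617 in gp91phox-/-. Cybb was listed at 0 in all 9 libraries, so the gp91phox-/- label could not be checked on its target. Replicates 2 and 3 of p47phox-/- had a read on 14323 and 14268 genes, against 15825 to 18760 in the other 7 libraries, and stood apart from them in a principal component analysis. The 12 macrophage markers, among them Csf1r, Adgre1 and C1qa, summed to 575732 to 864313 normalized counts in every library, so macrophage transcripts were present in all, as labelled.

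In WT macrophages the replication genes were the more abundant. Per kilobase of exonic sequence, Pcna, the sliding clamp of the replication fork, was the highest member at 1904 normalized counts (mean of 3 libraries), followed by the licensing factor Cdt1 at 809.6 and the chromatin protein Hmgb2 at 751. Mki67, the Ki-67 antigen that coats mitotic chromosomes, stood 11th at 198 per kilobase. Rad51b was 44th at 21.0 per kilobase, and the lowest 2 were the cyclin Ccne2 at 7.0 and the kinetochore protein Cenpf at 5.21. Members together took 0.0892 to 0.124% of a library's reads in WT, 0.0895 to 0.107% in p47phox-/- and 0.104, 0.111 and 0.197% in gp91phox-/- replicates 1, 2 and 3.

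Mitosis members varied more between libraries of a genotype than most genes did, with a median coefficient of variation of 31.5% in WT, 35.2% in p47phox-/- and 59.8% in gp91phox-/-, against 17.6, 23.1 and 14.5% over all genes. Replication members did so in gp91phox-/- alone, at 46.0%, and were at 15.7% in WT and 16.8% in p47phox-/-. Replicate 3 of gp91phox-/- was the highest of all 9 libraries in 43 of the 46 members, including all 28 mitosis members, whereas it was the highest in 9.46% of all genes tested. The exceptions were Rad51b and Mcm4, highest in gp91phox-/- replicate 2, and Cdt1, highest in p47phox-/- replicate 2. Set against the mean of replicates 1 and 2, replicate 3 stood at a median of 2.29 times over the members, from 0.640 for Rad51b to 4.05 for Rrm2, and at 0.996 times over all genes. It was at least 2-fold higher in 29 members (63.0%) but in 4.62% of all genes.

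That excess was found in every role except recombination repair. The spindle genes Tpx2, Kif11, Nusap1 and Stmn1 were 2.79 to 3.24 times higher in replicate 3 than in the mean of the other gp91phox-/- libraries, and the nucleotide synthesis genes Rrm1, Rrm2, Tyms and Tk1 were 2.15 to 4.05 times higher. It was smaller for origin licensing and helicase genes, at a median of 1.75 times (1.23 for Cdt1 to 2.32 for Mcm7), and for Mki67 at 1.43 times. No marker list followed it: the sums over macrophage, B cell, plasma cell and monocyte markers in replicate 3 were 0.867, 1.06, 1.02 and 1.10 times the mean of the other libraries, and those of the other 7 lists lay between 0.737 and 1.21.

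Replicate 2 of p47phox-/- was the opposite case. It was the lowest of the 9 libraries in 24 of the 46 members, against 22.7% of all genes, and 18 of these 24 were mitosis members. Its ratio to the mean of p47phox-/- replicates 1 and 3 had a median of 0.685 over the members and ran from 0.101 for Ect2, a cytokinesis regulator, to 1.59 for the kinase Plk1. It lay at or below 0.5 in 12 mitosis members and in 0 replication members, and in 13.3% of all genes. Among WT libraries, replicate 2 was the highest in 38 of the 46 members, against 35.8% of all genes. WT replicate 2 also had the highest B cell, plasma cell and dendritic cell marker sums of the 9 libraries, at 24957, 39075 and 7266 normalized counts. The part of these cell types in its member values was not tested. The coefficient of variation within a genotype had a median over the members of 25.5% in WT, 25.8% in p47phox-/- and 52.1% in gp91phox-/-, against 17.6%, 23.1% and 14.5% over all genes.

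**Figure D1:**
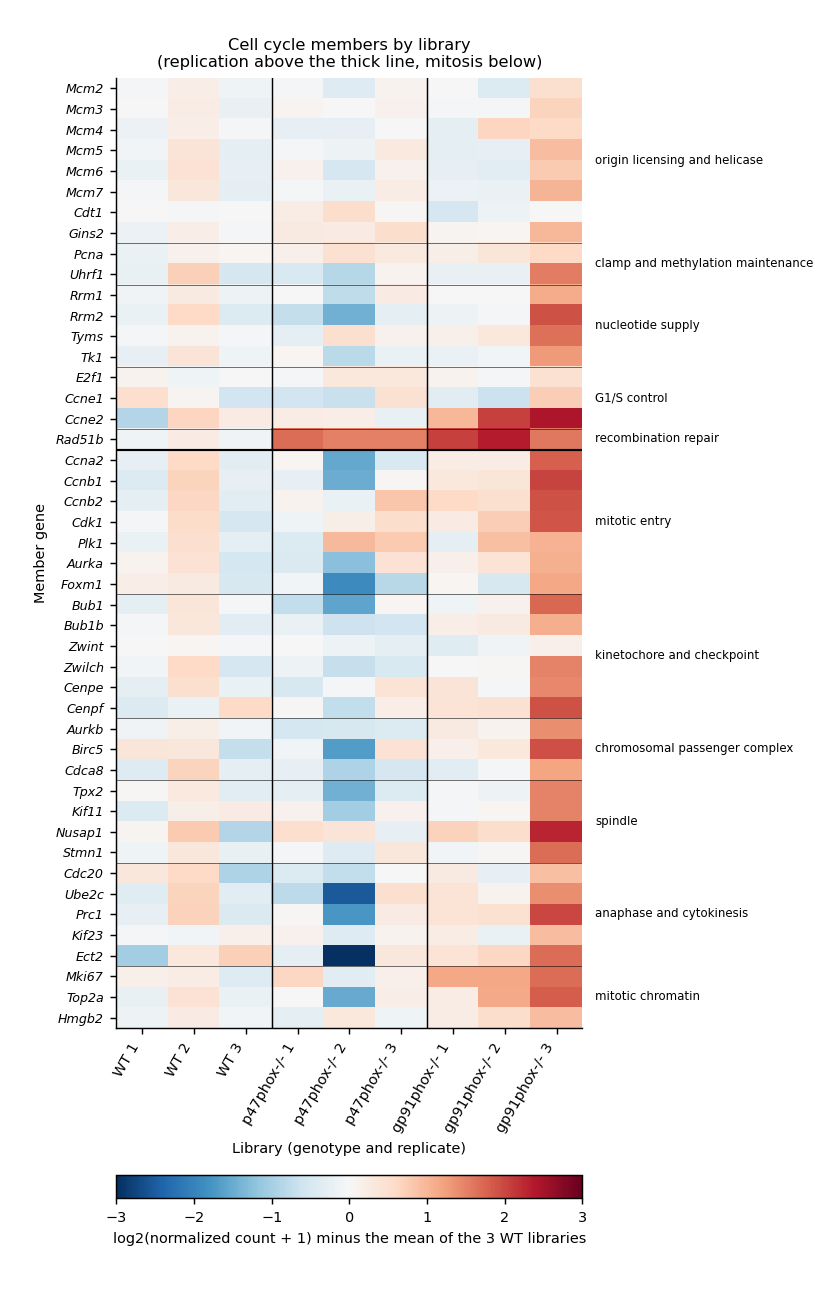
Each row is a member and each column a library; colour gives log2(normalized count + 1) minus the mean of the 3 WT libraries, with replication members above the thick line and mitosis members below. The column of gp91phox-/- replicate 3 is red in nearly every row (highest library in 43 of 46), that of p47phox-/- replicate 2 is blue in most mitosis rows, and the Rad51b row is red in all 6 knockout libraries.

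**Figure D2:**
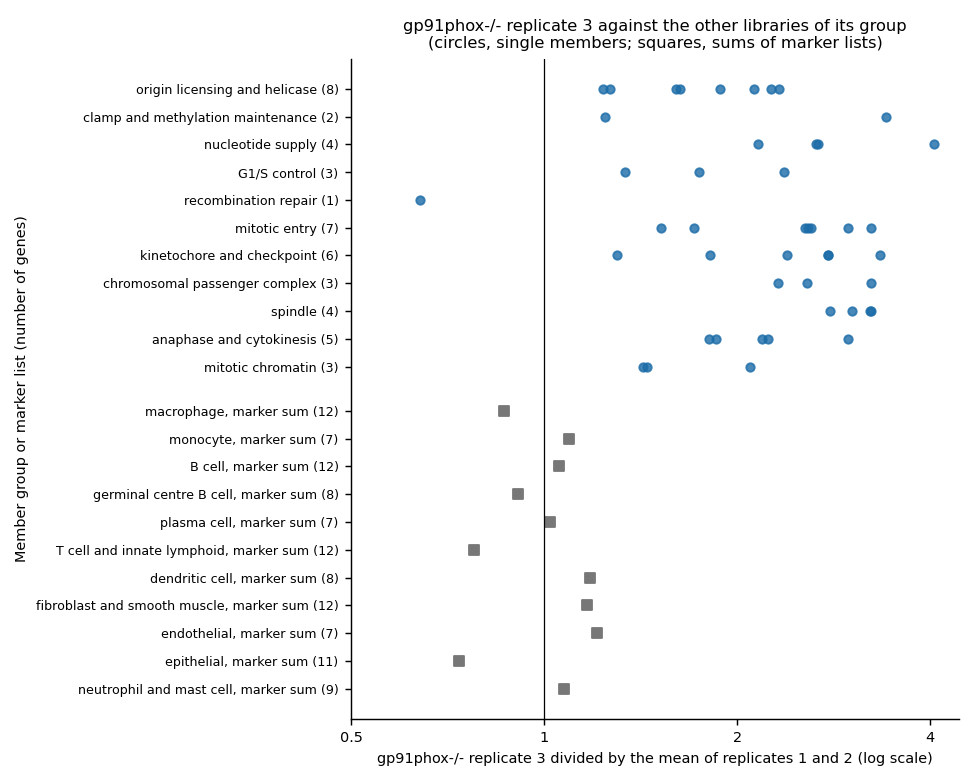
The horizontal axis, on a log scale, gives the level in gp91phox-/- replicate 3 divided by the mean of gp91phox-/- replicates 1 and 2; circles are single members by role and squares are sums over marker lists of cell types. Members reach 4.05, and Rad51b alone lies below 1 at 0.640, while the marker sums lie between 0.737 and 1.21.

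In p47phox-/- against WT macrophages, 1 of the 46 members changed, Rad51b, which was higher. Rad51b encodes a protein that takes part in the repair of broken DNA by homologous recombination. It lies on chromosome 12 from 79297282 to 79814690 on the plus strand (GRCm38) and overlaps no other tested gene. Its normalized count was 72.1, 92.5 and 72.2 in WT replicates 1, 2 and 3, and 253, 226 and 227 in the p47phox-/- replicates. Every p47phox-/- library lay well above every WT library, and the log2 fold change was 1.57 (SE 0.26), or 2.97-fold on the log2(normalized count + 1) scale, with an adjusted p = 0.015 in limma. No member was called lower. Over all genes tested, 1.12% were called in this comparison, 0.625% higher and 0.5% lower. The Rad51b call was not kept without WT replicate 3 (adjusted p = 0.0693), with p47phox-/- replicate 1 alone in its group (0.16) or when only the groups compared were fitted (0.0551), and its log2 fold change stayed between 1.51 and 1.69 over all 24 alternatives.

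The other members lay on both sides of 0 in this comparison. The median log2 fold change was 0.01 over the replication members and -0.43 over the mitosis members, against -0.02 over all genes, and 14 of the 46 members were above 0. The mitosis median rested on p47phox-/- replicate 2: without it, the median was -0.02 over the mitosis members, and 26 of the 46 members were above 0. No mitosis member passed the test, with adjusted p of 0.379 to 0.971 in limma, and only Rad51b had an unadjusted p under 0.05, against 15% of all genes. The groups did not overlap in 4 members that were higher in p47phox-/- (Cdt1, Gins2, Pcna and Rad51b, 8.7% of the members against 9.25% of all genes) and in 1 that was lower (Aurkb, 2.17% against 8.49%). These shares were near or under the background.

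Pcna gave an example of a small shift. Its normalized count was 3937, 4999.7 and 4771 in WT, 5032, 6269 and 5547 in p47phox-/- and 5132, 5848 and 6839 in gp91phox-/- replicates 1, 2 and 3. All 6 knockout libraries were above the WT libraries, the lowest of them by less than the spread within WT. The log2 fold changes, 0.30 (SE 0.15) in p47phox-/- and 0.38 (SE 0.15) in gp91phox-/- against the same WT libraries, did not pass the test (adjusted p = 0.363 and 0.157, limma).

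In gp91phox-/- against WT macrophages, 2 members changed, and both were higher: Rad51b and Mki67. Over all genes tested, 7.05% were called, 2.53% higher and 4.53% lower. The members' share of 4.35%, all higher, was under the 7.05% called in either direction and over the 2.53% called higher. It rested on 2 members, too few to set the share apart from the background. The direction of the 46 members was less mixed than that of all genes. The log2 fold change was above 0 in 43 of the 46 members (93.5%), against 50.6% of all genes, with a median of 0.53 against 0.01. Without gp91phox-/- replicate 3 this fell to 30 of the 46 members and a median of 0.13.

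Rad51b, at 330.3, 405 and 235 normalized counts in gp91phox-/- replicates 1, 2 and 3, was 3.99-fold higher than in WT (log2 fold change 2.00, SE 0.26, adjusted p = 0.000618, limma). It was the 1 member in which replicate 3 was the lowest library of its group, and without that library the log2 fold change was 2.21 (adjusted p = 0.000969). The call was kept in all 24 alternatives. Levels in gp91phox-/- and p47phox-/- were not told apart (log2 fold change 0.43, 95% interval -0.14 to 1.00, adjusted p = 0.335); the 2 knockouts share their WT controls. Among the nearest tested genes, 3 on each side, Zfp36l1, which encodes an RNA-binding protein that destabilises AU-rich transcripts and starts at 80107754 on chromosome 12, was higher in gp91phox-/- (log2 fold change 0.58, SE 0.12, adjusted p = 0.011, limma). It was not called in p47phox-/- (-0.15, adjusted p = 0.598). Rdh11, Rdh12, Zfyve26, 2310015A10Rik and Actn1 did not pass the test in any of the 3 comparisons.

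Mki67 lies on chromosome 7 from 135689784 to 135716361 on the minus strand (GRCm38). Its normalized count was 2187, 2276 and 1508 in WT, 3017, 1546 and 2186 in p47phox-/- and 4406, 4404 and 6281 in gp91phox-/- replicates 1, 2 and 3. All 3 gp91phox-/- libraries were above all 6 others, while WT and p47phox-/- overlapped. Mki67 was 2.53-fold higher in gp91phox-/- than in WT (log2 fold change 1.34, SE 0.24, adjusted p = 0.00519, limma) and 2.29-fold higher than in p47phox-/- (1.19, SE 0.24, adjusted p = 0.00885). The change against WT was present without gp91phox-/- replicate 3 (1.17, SE 0.26, adjusted p = 0.0246), and the call was missed in 1 of 24 alternatives, the fit without a mean-variance trend (adjusted p = 0.0502). Mki67 exceeded the WT range in all 3 gp91phox-/- libraries, and thus did not depend on replicate 3 alone. The gp91phox-/- replicates 1 and 2 lay within the WT range for 23 and 21 of the 28 mitosis members (82.1 and 75%). For all genes tested the shares were 40.4 and 39.9%. That range was wide for mitosis members, with a median coefficient of variation of 31.5% in WT against 17.6% over all genes.

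Top2a, the topoisomerase that disentangles sister chromatids, stood at 797, 1240.2 and 801 normalized counts in WT, 914, 324 and 1058 in p47phox-/- and 1084, 2021 and 3255 in gp91phox-/-. Its gp91phox-/- libraries ran from inside the WT range to well above it. The log2 fold change against WT was 1.06 (SE 0.44) and did not pass the test (adjusted p = 0.185, limma). Against p47phox-/- it was 1.5 (SE 0.44), with an adjusted p = 0.051 just over the threshold, and was under it in 8 of 24 alternatives. Hmgb2, the third member of the mitotic chromatin group, was at 2616, 3247 and 4245 in gp91phox-/- against 2004, 2638 and 2120.5 in WT (log2 fold change 0.56, SE 0.20, adjusted p = 0.118).

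**Figure D3:**
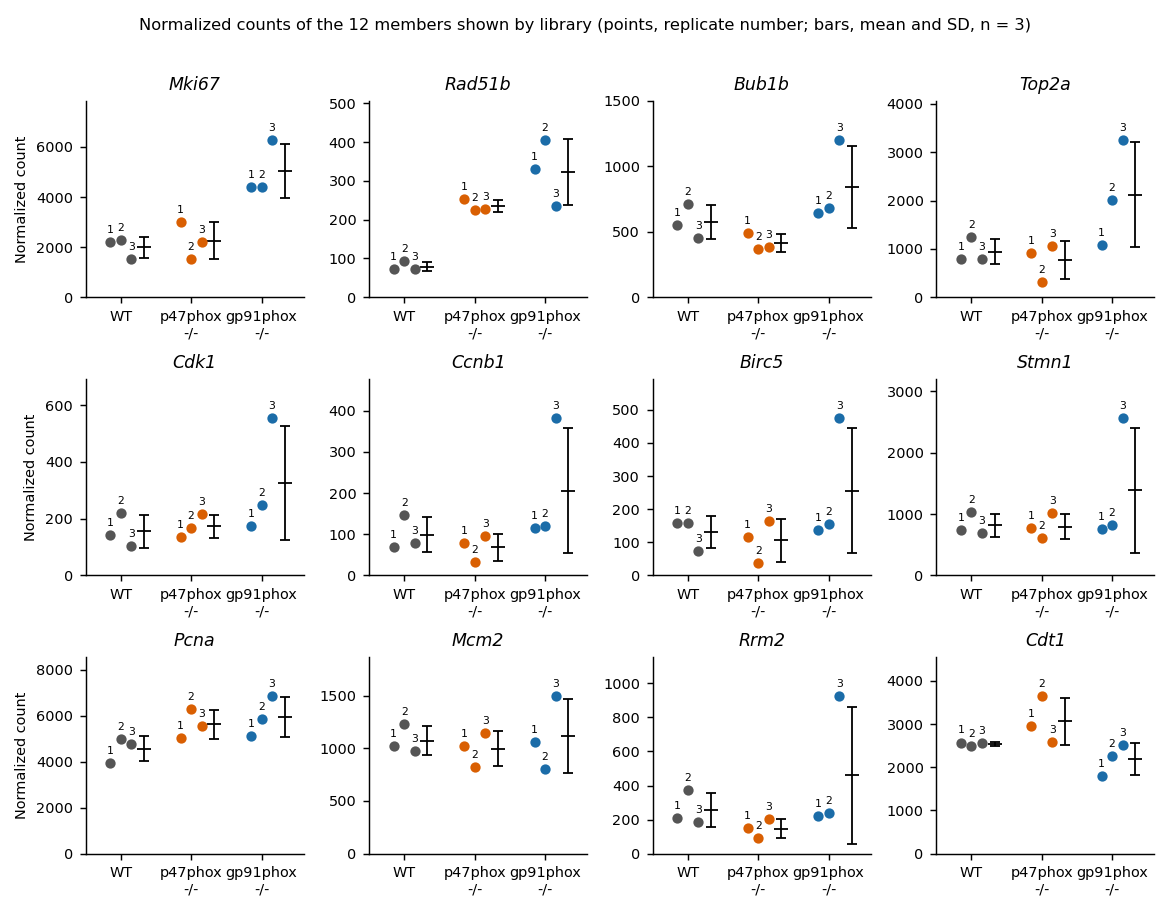
Normalized counts (vertical axes from 0) of 12 members in the 3 genotypes; points are libraries with their replicate number, and bars give the mean and SD of 3 libraries. Mki67 is higher in all 3 gp91phox-/- libraries and Rad51b in all 6 knockout libraries, whereas gp91phox-/- replicate 3 stands far above all other libraries for Cdk1, Ccnb1, Birc5, Stmn1 and Rrm2.

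The cyclins and kinases of mitotic entry did not pass the test in gp91phox-/- against WT. Cdk1, the kinase that drives entry into mitosis, was at 143, 219 and 104 normalized counts in WT, 135, 168 and 215 in p47phox-/- and 176, 249.8 and 555 in gp91phox-/- (log2 fold change 0.96, SE 0.41, adjusted p = 0.193 against WT, limma). Ccnb1, its cyclin B partner, was at 69.6, 148 and 78.6 in WT, 78.1, 32.5 and 96.2 in p47phox-/- and 116, 121 and 382 in gp91phox-/- (0.90, SE 0.54, adjusted p = 0.372). In both genes gp91phox-/- replicate 3 stood far above every other library. All 7 members of the mitotic entry group, with Ccna2, Ccnb2, Plk1, Aurka and Foxm1, had log2 fold changes above 0, from 0.25 to 0.99, and adjusted p of 0.191 to 0.823.

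No kinetochore, passenger complex, spindle or cytokinesis member passed the test in gp91phox-/- against WT. Birc5, the survivin subunit of the chromosomal passenger complex, was at 159, 157 and 75.0 normalized counts in WT, 116, 37.8 and 166 in p47phox-/- and 138, 155 and 475 in gp91phox-/- (log2 fold change 0.81, SE 0.58, adjusted p = 0.477). Stmn1, which destabilises microtubules, was at 741, 1027 and 686 in WT, 769.7, 613 and 1011 in p47phox-/- and 764, 829.6 and 2565 in gp91phox-/- (0.55, SE 0.38, adjusted p = 0.461). For both, gp91phox-/- replicates 1 and 2 fell inside the WT range. Zwint, a kinetochore scaffold, was the only mitosis member with a log2 fold change below 0 (-0.11, adjusted p = 0.759), at 903, 1074 and 1284 in gp91phox-/- against 1125 to 1205 in WT.

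Among replication members, the Mcm helicase genes had small log2 fold changes in gp91phox-/- against WT, from libraries that differed among themselves. Mcm2 was at 1021, 1228 and 972 normalized counts in WT, 1023, 820.3 and 1149 in p47phox-/- and 1055, 802 and 1493 in gp91phox-/-, with a log2 fold change of 0.02 (SE 0.22, 95% interval -0.45 to 0.49) against WT. Mcm3, Mcm4, Mcm5, Mcm6 and Mcm7 had values of 0.07 to 0.33, and none of the 8 licensing and helicase members passed the test. The intervals were wide, at -0.50 to 0.77 for Mcm5. In every Mcm gene gp91phox-/- replicate 3 was above the WT range. Mcm5 was at 854, 864 and 1942 in gp91phox-/- against 834 to 1333 in WT. Without replicate 3 the log2 fold changes of the Mcm genes against WT ran from -0.29 for Mcm6 to 0.19 for Mcm4. Rrm2, the regulated subunit of ribonucleotide reductase, was at 212, 372 and 184 in WT, 149, 89.7 and 203 in p47phox-/- and 220.2, 236 and 924 in gp91phox-/- (0.57, SE 0.51, adjusted p = 0.574). Its group mean of 460.1 ± 402 (SD, n = 3) came from replicate 3, the others lying inside the WT range.

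E2f1, a transcription factor that switches on replication genes, was at 1028, 876 and 972 normalized counts in WT, 919, 1188 and 1192 in p47phox-/- and 1036, 939 and 1321 in gp91phox-/-. The groups overlapped, and the log2 fold changes against WT were 0.19 and 0.18 (SE 0.17 for each; adjusted p = 0.625 and 0.589, limma). Ccne2, a cyclin E that starts S phase, was low in every library, at 11.6, 35.2 and 26.5 in WT, 26, 25.5 and 19.1 in p47phox-/- and 45.5, 95.9 and 123 in gp91phox-/-. All gp91phox-/- libraries were above the others, but the log2 fold change of 1.83 (SE 0.56) did not pass the test (adjusted p = 0.0763). Groups did not overlap in 5 members that were higher in gp91phox-/- than in WT (Pcna, Tyms, Ccne2, Rad51b and Mki67), 10.9% of the members against 15.1% of all genes, and in 0 that were lower, against 18.2%.

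Cdt1, which loads the helicase onto origins and is destroyed once S phase begins, departed from the other members. It was at 2574, 2499 and 2554 normalized counts in WT, 2946, 3644 and 2593 in p47phox-/- and 1794, 2272 and 2507 in gp91phox-/-. It was thus the member with the lowest log2 fold change in gp91phox-/- against WT (-0.23, SE 0.16, adjusted p = 0.455) and against p47phox-/- (-0.48, SE 0.16, adjusted p = 0.075, limma), and neither passed the test. All gp91phox-/- libraries were below all p47phox-/- libraries, as was the case for 17.3% of all genes.

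Between the knockouts, 2 members differed, Mki67 and Bub1b, and both were higher in gp91phox-/-. In this comparison 9.93% of all genes were called, 3.97% higher and 5.96% lower, against 4.35% of the members. Bub1b, the BubR1 kinase of the spindle checkpoint, was at 549, 714 and 455 normalized counts in WT, 494, 366 and 381 in p47phox-/- and 645, 679 and 1200.5 in gp91phox-/-. The gp91phox-/- libraries lay above the p47phox-/- libraries but overlapped WT, and the log2 fold change between the knockouts was 0.98 (SE 0.26, 1.97-fold, adjusted p = 0.0313, limma). The call was lost in 10 of 24 alternatives, among them without gp91phox-/- replicate 3 (adjusted p = 0.122) or 2 (0.051) and without p47phox-/- replicate 2 (0.0727) or 3 (0.0861).

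The log2 fold change between the knockouts was above 0 in 44 of the 46 members (95.7%), against 51.5% of all genes. It had a median of 0.97 over the mitosis members and 0.21 over the replication members, against 0.02 over all genes. An unadjusted p under 0.05 was reached by 20 members (43.5%), against 26% of all genes. Groups did not overlap in 14 members that were higher in gp91phox-/- (30.4% against 13.6% of all genes), of which 12 were mitosis members. They also did not overlap in 1 member that was lower (Cdt1, 2.17% against 17.3% of all genes). Leaving out gp91phox-/- replicate 3 brought the median over all members from 0.75 to 0.37 and left Mki67 as the only call (1.02, SE 0.26, adjusted p = 0.0396). Leaving out p47phox-/- replicate 2 as well, chosen after seeing the data, brought the median to 0.24 with 0 members called, Mki67 having an adjusted p = 0.0621.

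**Figure D4:**
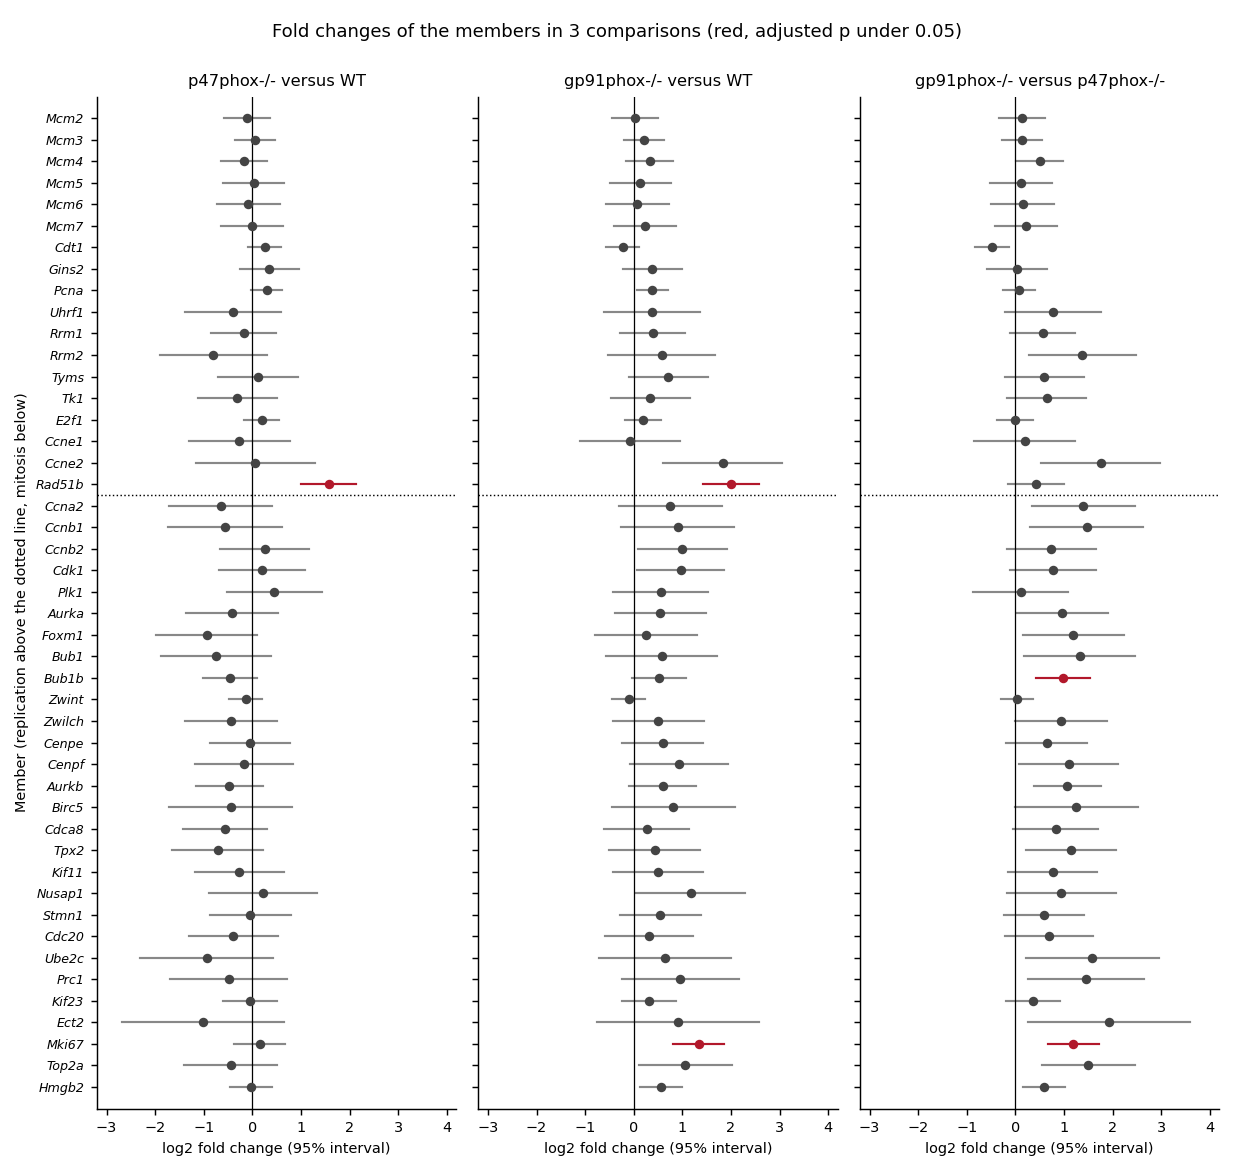
Log2 fold changes (points) with 95% intervals (lines) of the 46 members in the 3 comparisons, red where the adjusted p was under 0.05. Red points are Rad51b in p47phox-/- versus WT, Rad51b and Mki67 in gp91phox-/- versus WT, and Bub1b and Mki67 between the knockouts; most intervals of mitosis members include 0 against WT.

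The ratio of summed mitosis counts to summed replication counts was higher in every gp91phox-/- library than in any library of the other genotypes. Summed normalized counts of the 28 mitosis members divided by those of the 18 replication members were 0.658, 0.689 and 0.604 in WT, 0.634, 0.469 and 0.579 in p47phox-/- and 0.864, 0.873 and 1.01 in gp91phox-/- replicates 1, 2 and 3. No p is given for sums over chosen genes. Mki67 made up 14.9 to 20% of the mitosis sum in WT, 17.3 to 25.9% in p47phox-/- and 21.2 to 29.8% in gp91phox-/-. Without Mki67 the ratio was 0.526, 0.578 and 0.514 in WT, 0.470, 0.388 and 0.471 in p47phox-/- and 0.607, 0.640 and 0.798 in gp91phox-/-. By this ratio gp91phox-/- was nearer to the other genotypes and still did not overlap them. Such sums weigh abundant members most, and the abundant Hmgb2 and Top2a were not taken out. In gp91phox-/- replicates 1 and 2, 23 and 21 of the 28 mitosis members lay within the WT range, which was wide for these members. Of all genes, 40.4 and 39.9% lay within it. Without gp91phox-/- replicate 3, 22 of the 28 mitosis members had log2 fold changes above 0 against WT (78.6%), against 49.9% of all genes. The ratio is a property of sums and was not shown for single mitosis members. The sums themselves overlapped for replication, at 17924 ± 2220.0 in WT, 19206 ± 898 in p47phox-/- and 21749.7 ± 6536 in gp91phox-/- (SD, n = 3). For mitosis they were 11704 ± 2124, 10760.1 ± 1595 and 20302 ± 8107, with the lowest gp91phox-/- library at 14797 and the highest WT library at 14109.

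**Figure D5:**
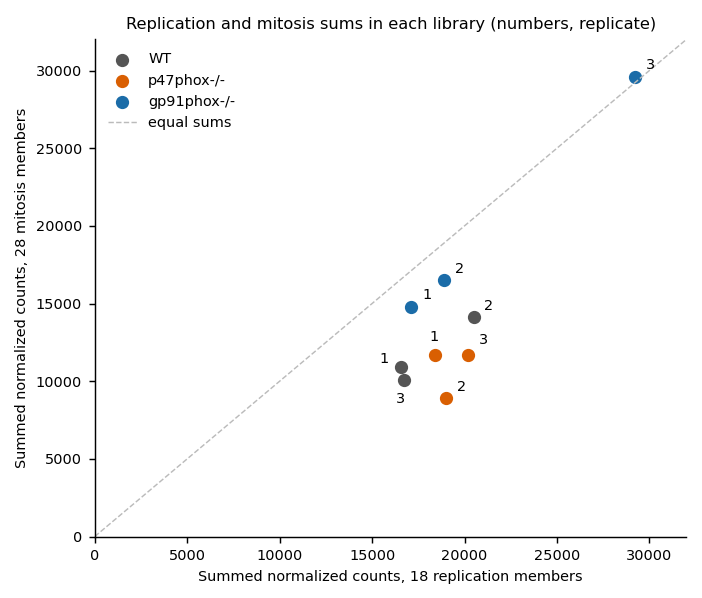
Each point is a library: the horizontal axis gives summed normalized counts of the 18 replication members and the vertical axis those of the 28 mitosis members, both from 0; the dashed line marks equal sums. The gp91phox-/- libraries lie nearer to the dashed line than the other 6, with replicate 3 on it at 29227 and 29612.

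Markers of other cell types moved with genotype and are set beside these results. Over 12 B cell markers, the summed normalized count was 13057 to 24957 in WT, 12122 to 20938 in p47phox-/- and 1731 to 1924 in gp91phox-/-. The dendritic cell marker sum was also lower in gp91phox-/- (1807 to 2371, against 4074 to 7266 in WT). Much of it was Ccr7, at 944 to 1579 in gp91phox-/- and 2799 to 5161 in WT. In this list Ccr7, Flt3, Itgae and Cd209a were called lower against WT in limma. Zbtb46, Xcr1, Clec9a and Batf3 were not called, and Batf3 had a log2 fold change above 0 (0.32). Monocyte markers summed to 16097 to 23004 in WT, 24791 to 38274 in p47phox-/- and 23030.1 to 29941 in gp91phox-/-, and fibroblast and smooth muscle markers to 7005 to 9196, 11953 to 18591 and 10062 to 12121. Their part in the values of the members was not tested.

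Beyond the members, 140 other cell cycle genes were listed and 139 tested. In p47phox-/- against WT 0 of them were called by limma, 13 had an unadjusted p under 0.05, edgeR called 0 and DESeq2 called 1. Of all genes tested, 15% had such an unadjusted p, against 9.35% of the 139. In gp91phox-/- against WT, 4 were called (2.88%), all higher, which was not above the background of 7.05% called and near the 2.53% called higher over all genes. Btg2, an antiproliferative gene induced by p53, was at 6842, 7292 and 7893 normalized counts in WT, 6428, 8616 and 7165 in p47phox-/- and 22301, 18177 and 16577 in gp91phox-/-. The gp91phox-/- libraries were far above the rest and the log2 fold change was 1.36 (SE 0.15, adjusted p = 0.000161, limma), a call kept in all 24 alternatives.

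The D cyclins, which carry growth signals to Cdk4 and Cdk6, were next. Ccnd1 was at 2406, 2408 and 2536 in WT, 3482, 2736 and 3218 in p47phox-/- and 4038, 3781 and 3831 in gp91phox-/- (log2 fold change 0.66, SE 0.12, adjusted p = 0.00592 against WT). Ccnd2 was at 2225, 1849.7 and 2926 in WT and 3419, 3615 and 3431 in gp91phox-/- (0.61, SE 0.16, adjusted p = 0.0444), a call lost in 11 of 24 alternatives. The Ccnd1 values of the 3 genotypes did not overlap, with p47phox-/- between WT and gp91phox-/-, although p47phox-/- against WT did not pass the test (0.35, adjusted p = 0.194). Rbl1, the RB family protein p107, was higher in gp91phox-/- by 0.92 (SE 0.25, adjusted p = 0.0461), also lost in 11 of 24 alternatives.

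Between the knockouts 7 of the 139 genes were called (5.04%), all higher in gp91phox-/-, against 9.93% of all genes called and 3.97% called higher, so that the share was near or under the background. Besides Btg2 (log2 fold change 1.36) and Rbl1 (1.10) they were the ubiquitin ligase subunit Ccnf (1.34, adjusted p = 0.00135, limma), the p53 target Ccng1 (1.06, 0.00273), the chromatin ATPase Atad2 (1.13, 0.00585), the passenger complex scaffold Incenp (0.72, 0.0246) and the retinoblastoma gene Rb1 (0.50, 0.0385). Ccnf, Ccng1 and Atad2 lay on both sides of WT: their log2 fold changes against WT were -0.86, -0.55 and -0.70 in p47phox-/- and 0.48, 0.51 and 0.43 in gp91phox-/-, and none of these passed the test. The Rb1 call was lost in 14 of 24 alternatives, the Incenp call in 8 and the Rbl1 call in 4.

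The inhibitors fixed for naming did not pass the test. Cdkn1a, which encodes the Cdk inhibitor p21, was by far the most abundant of them, at 19084, 16855 and 16820.1 normalized counts in WT, 16268, 20498 and 16774 in p47phox-/- and 19583, 23636 and 27026 in gp91phox-/- (log2 fold change 0.40, SE 0.15, adjusted p = 0.141 against WT, limma). The log2 fold change against WT in gp91phox-/- was 0.08 (adjusted p = 0.852) for Cdkn1b, encoding p27, and 0.74 (adjusted p = 0.125) for Cdkn2c, encoding p18. Over all 139 genes the median log2 fold change was -0.05, 0.35 and 0.40 in p47phox-/- versus WT, gp91phox-/- versus WT and gp91phox-/- versus p47phox-/-.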

How the data were processed

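RNA was extracted with an RNeasy kit and sequenced paired-end, per the labels' protocols. Reads were demultiplexed with bcl2fastq 2.19, trimmed with Cutadapt, aligned to mm10 with STAR 2.5.2b and counted with featureCounts, and DESeq2 was used, per the labels' protocols and the submitters' processing notes. Strand setting, annotation and the handling of reads with several alignments are not given in the sources used here. The authors deposited normalized counts, a signal in which each library's reads are divided by a size factor. Whole reads were recovered from 100% of values (tolerance 0.01), with size factors of 1.05 to 1.66 and 31141107 to 52797368 reads per library. Separate animals are not stated for the libraries, so the p-values cover only the spread among these samples, part of which may be technical.

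Values were set to log2(normalized count + 1). The 14404 genes with at least 10 in at least 3 libraries were fitted in limma 3.58.1 (R 4.3.3), 3 groups in 1 fit with a mean-variance trend, Benjamini-Hochberg adjustment over all genes and a threshold of 0.05. Simulated data with 200 of 14404 genes changed served as a check: of 2-fold changes 52, 48 and 45% were recovered, and of 4-fold changes 85, 69 and 80%, in p47phox-/- versus WT, gp91phox-/- versus WT and gp91phox-/- versus p47phox-/-. Alternatives were other scalings, pseudocounts and filters, a fit of only the groups compared, a block for the replicate number, libraries left out, no trend, array weights, and count tests of the recovered reads with edgeR 4.0.16 and with DESeq2 1.42.0. Gene positions and exonic lengths are from GENCODE (GRCm38).

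The members and lists were chosen with earlier results of these data known. Named with all values were members called in any comparison and Mki67, Top2a, Pcna, Mcm2, Cdk1, Ccnb1, E2f1, Cdt1, Rad51b, Rrm2, Birc5 and Stmn1. Of the 139 other cell cycle genes, the called ones and Ccnd1, Cdkn1a, Cdkn1b and Cdkn2c were named. Ccne2, Hmgb2, Zwint, Tyms, Gins2, Aurkb, Ect2, Plk1, Mcm4 and the neighbours of Rad51b were named after their values were seen. Mcm7, Gins2, Tk1, Ccne2, Ccna2, Cdca8, Nusap1, Cdc20 and Prc1 overlap a tested gene on the other strand, whose reads cannot be told apart without strand.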

Additional observations from a re-analysis of the deposited data

Results flagged for a closer look

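The difference between the knockouts' changes from the shared WT libraries, which is the gp91phox-/- versus p47phox-/- comparison, passed the threshold in limma for 2 members and 7 other cell cycle genes. Among the members these were Mki67, with a log2 difference of 1.19, higher in every gp91phox-/- library than in any p47phox-/- library, and Bub1b, with 0.98. Among the other genes they were Btg2 (1.36), Ccnf (1.34), Atad2 (1.13), Rbl1 (1.10), Ccng1 (1.06), Incenp (0.72) and Rb1 (0.50). Btg2 and Ccnf kept their calls in all 24 alternatives, Atad2 and Ccng1 in 23, Mki67 in 21, Rbl1 in 20, Incenp in 16, Bub1b in 14 and Rb1 in 10. Each group had 3 libraries, too few for a formal test of single libraries as outliers, but fits that left out single libraries were run. Without gp91phox-/- replicate 3, the calls of Bub1b (adjusted p = 0.122, limma), Incenp (0.106), Rb1 (0.0954) and Rbl1 (0.0762) were lost. Those of Mki67, Btg2, Ccnf, Atad2 and Ccng1 were kept.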

How the results depend on the processing

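The alternatives numbered 24, of which 1, the fit without p47phox-/- replicate 2 and gp91phox-/- replicate 3 together, was chosen after seeing the data. No called value turned its direction. In p47phox-/- versus WT, where 1 member was called, 0 were called with only the groups compared and with p47phox-/- replicate 1 alone in its group, and 0 to 1 with single libraries left out (0 without WT replicate 3). In gp91phox-/- versus WT (2 members called) the count was 1 without a trend, 6 with array weights and 4 with DESeq2. Between the knockouts (2 called) it was 4 with TMM scaling, recomputed size factors or a filter of 50, 5 with quantile normalization, 1 with only the groups compared, 0 without a trend, with p47phox-/- replicate 1 alone or with both libraries left out, 12 with DESeq2, and 1 to 5 with single libraries left out (5 without gp91phox-/- replicate 1, 1 without replicate 2 or 3). Of the 139 other cell cycle genes, 0 were called in p47phox-/- versus WT but 1 with a filter of 50 or DESeq2, and 0 to 2 with single libraries left out. In gp91phox-/- versus WT (4 called) the count was 7 with quantile normalization or p47phox-/- replicate 1 alone, 2 with no filter, no trend or both libraries left out, 8 with only the groups compared, 14 with array weights, 12 with DESeq2, and 2 to 7 with single libraries left out. Between the knockouts (7 called) it was 14 with quantile normalization, 2 with p47phox-/- replicate 1 alone, 4 with both libraries left out, 24 with DESeq2, and 4 to 11 with single libraries left out. The cause of these differences was not tested. Same-numbered libraries did not deviate together over all genes (correlations of -0.04 to 0.076). No pairing by number was seen, which does not settle whether such libraries were prepared together. With the replicate block in limma 1 member was called between the knockouts, and Bub1b had an adjusted p = 0.0523. The members' median log2 fold change, 0.53 in gp91phox-/- versus WT, was 0.52 to 0.64 under the other scalings, pseudocounts, filters and tests, and 0.13 without gp91phox-/- replicate 3. Low members such as Ccne2 are limited by depth, at 11.6 to 35.2 normalized counts in WT.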
